A study of Homo sapiens with 6 samples.

Results

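VGF, CNTNAP1, C1QL1 and C4orf48 are 4 genes known mainly from the nervous system. They were detected in the TPC1 line, derived from a papillary carcinoma of the thyroid. Their RNA level differed after transfection of an siRNA against the circular RNA hsa_circ_0000839. They are the 4 rows of the deposited gene table, of 58735 in all, whose symbols are on this list, and they were chosen by their adjusted p in the comparison described here. RNA sequencing covered 6 samples. In 3 of them TPC1 cells had been transfected with si-circ_0000839, an siRNA against the circular RNA, and in the other 3 with a negative-control siRNA (NC). Both groups were collected 60 h after transfection. The line is a single tumour-derived line, the labels do not say whether the 3 samples of a group were separate cultures, and the circular RNA was not matched to a row of the table, so its depletion was not checked.

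VGF encodes a secreted precursor of the granin family, which is packed into dense-core vesicles and cut by prohormone convertases into short signalling peptides. It is induced by nerve growth factor and by cyclic AMP through CREB. CNTNAP1 encodes contactin-associated protein 1 (Caspr), a membrane protein that pairs with contactin 1 on the axon and holds the paranodal junction with myelinating glia. C1QL1 encodes a secreted protein with a C1q domain that binds the adhesion receptor ADGRB3 and organises synapses in the cerebellum. C4orf48, now also named NICOL1, encodes a small secreted protein of the brain whose mouse counterpart acts together with NELL2, a ligand of the receptor ROS1, in the epididymis.

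The promoters are shown because VGF is a textbook target of CREB and because C4orf48 starts beside a gene read in the other direction. Of the 4 genes 3 matched the RefSeq promoter table (GRCh38.p14), C4orf48 under the symbol NICOL1; C1QL1 has no entry. The 250 bases before each annotated start are given 5′ to 3′ on the gene's own strand. They are chr7:101165570-101165819 (minus strand) for VGF, chr17:42682281-42682530 (plus strand) for CNTNAP1 and chr4:2041745-2041994 (plus strand) for C4orf48. Capitals mark every match on either strand to 5 motifs. The first is the full cyclic AMP response element (CRE), spelled TGACGTCA. Its half-site is spelled TGACG and overlaps the full element. The CCAAT box is spelled by its name. The TATA box is spelled TATAAA. The E-box is spelled CACGTG.
VGF: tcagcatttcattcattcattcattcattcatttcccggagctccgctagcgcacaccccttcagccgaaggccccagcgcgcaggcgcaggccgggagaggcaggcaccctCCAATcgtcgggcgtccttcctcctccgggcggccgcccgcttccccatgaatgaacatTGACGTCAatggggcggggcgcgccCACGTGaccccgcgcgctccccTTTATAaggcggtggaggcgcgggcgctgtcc
CNTNAP1: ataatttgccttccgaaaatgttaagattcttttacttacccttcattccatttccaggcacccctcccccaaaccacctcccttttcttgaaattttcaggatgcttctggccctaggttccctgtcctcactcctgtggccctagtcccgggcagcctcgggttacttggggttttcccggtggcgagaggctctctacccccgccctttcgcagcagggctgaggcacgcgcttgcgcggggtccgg
C4orf48: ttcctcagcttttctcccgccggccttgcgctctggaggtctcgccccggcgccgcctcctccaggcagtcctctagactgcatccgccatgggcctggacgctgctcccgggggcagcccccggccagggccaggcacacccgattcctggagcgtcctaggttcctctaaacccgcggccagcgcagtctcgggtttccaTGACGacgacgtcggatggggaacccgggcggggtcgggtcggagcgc

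The VGF promoter held a full CRE from 79 to 72 bases before the start, which 1.65% of 35116 promoter regions of the same length also hold. It further held a CCAAT box (in 32% of regions) and an E-box (6.34%). The exact TATA box spelling was matched on the opposite strand only, as TTTATA from 32 to 27 bases before the start (10.7% of regions match on either strand). Overlapping this match, the gene's own strand reads TATAAG, which differs from TATAAA in its last letter and was not among the spellings searched. The CRE half-site, which overlaps the full CRE of VGF, occurred once in C4orf48, from 48 to 44 bases before the start, and is found in 21.2% of regions. The CNTNAP1 region held no match to these 5 motifs. GC boxes (GGGCGG), left in lower case, were found in all 3 regions and in 42.6% of all regions. These matches describe letters and not binding. The regions of VGF, CNTNAP1 and C4orf48 were 66%, 56.8% and 70.4% G or C, beside a median of 58% for all regions. The shares were not adjusted for GC content.

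Levels are in FPKM, the authors' read counts divided by gene length and a scaling total per library, which was 0.958 (NC replicate 2) to 1.02 times the recovered reads of the library and so is not the read total itself. Log2 changes are si-circ_0000839 minus NC on the log2(FPKM + 1) scale, where changes of weakly expressed genes come out too small. The 6 libraries held 18399558 to 19334633 reads recovered from the FPKM values. The test took in the 10674 genes that averaged 1 FPKM or more. In limma 41 of them (0.384%) had an adjusted p under 0.05, of which 14 (0.131%) were higher and 27 (0.253%) lower, while 1347 (12.6%) had an unadjusted p under 0.05. All 4 genes belong to these 41, VGF and CNTNAP1 among the higher and C1QL1 and C4orf48 among the lower, because that is how they were chosen. The split of higher against lower calls moved with some scalings and not with others. It stayed at 14 and 27 with median-ratio scaling, and was 32 and 23 on TPM, 29 and 34 with quantile-normalized values, and 111 and 109 once a GC and length trend had been taken out of each library. With voom, which changes both the values and the model, it was 48 and 37. Without one of si-circ_0000839 replicates 1 and 3 or NC replicates 1 and 3 the number of calls was 21, 22, 25 and 20.

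VGF was at 8.87, 8.39 and 7.84 FPKM in si-circ_0000839 replicates 1, 2 and 3, against 4.56, 4.66 and 3.75 FPKM in NC replicates 1, 2 and 3. Each si-circ_0000839 library lay above each NC library, and the nearest pair of libraries still stood 1.68-fold apart. The means were 8.37 ± 0.519 FPKM after si-circ_0000839 and 4.32 ± 0.498 FPKM in NC (SD, n = 3 each), a ratio of 1.94. The log2 change was 0.82 (SE 0.09), the second largest among the 14 higher genes. VGF rested on 390 to 446 reads per library after si-circ_0000839 and 193 to 239 in NC. The coefficient of variation between NC libraries was 11.5%, where counting error alone gives 6.74%.

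CNTNAP1 was at 9.08, 8.13 and 8.57 FPKM in si-circ_0000839 replicates 1, 2 and 3, against 5.31, 5.93 and 5.25 FPKM in the 3 NC replicates. The groups did not overlap, and within each group the libraries lay close together, with coefficients of variation of 5.49% after si-circ_0000839 and 6.89% in NC. The means were 8.59 ± 0.472 FPKM after si-circ_0000839 and 5.50 ± 0.379 FPKM in NC (SD, n = 3 each), a ratio of 1.56 and a log2 change of 0.56 (SE 0.08). Its gene model is the longest of the 4, at 6045 bases, and it drew 953 to 1006 reads after si-circ_0000839 and 604 to 652 in NC.

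C1QL1 was at 16.002, 12.4 and 14.8 FPKM in si-circ_0000839 replicates 1, 2 and 3, against 22.4, 24.6 and 26.3 FPKM in the 3 NC replicates. Each si-circ_0000839 library lay below each NC library, and si-circ_0000839 replicate 2 was the lowest of all. The means were 14.4 ± 1.85 FPKM after si-circ_0000839 and 24.4 ± 1.96 FPKM in NC (SD, n = 3 each), a ratio of 0.589. The log2 change was -0.73 (SE 0.10), on 315 to 380 reads per library after si-circ_0000839 and 562 to 648 in NC. C1QL1 had the widest spread of the 4 within the si-circ_0000839 group, a coefficient of variation of 12.9% where counting error gives 5.35%.

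C4orf48 was the most abundant of the 4, with 97.1% of tested genes at a lower level. It was at 130.0, 112 and 117 FPKM in si-circ_0000839 replicates 1, 2 and 3, against 175, 198 and 167 FPKM in the 3 NC replicates. The groups did not overlap, and NC replicate 2 was the highest library. The means were 119.8 ± 9.17 FPKM after si-circ_0000839 and 180.4 ± 16.1 FPKM in NC (SD, n = 3 each), a ratio of 0.664 and a log2 change of -0.59 (SE 0.09). Its gene model has 540 bases, shorter than that of all but 3.09% of tested genes, and it still collected 1166 to 1287 reads after si-circ_0000839 and 1722 to 1948 in NC. In bulk RNA fewer cells that express a gene and less RNA per cell cannot be told apart, for this gene as for the other 3.

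**Figure D1:**
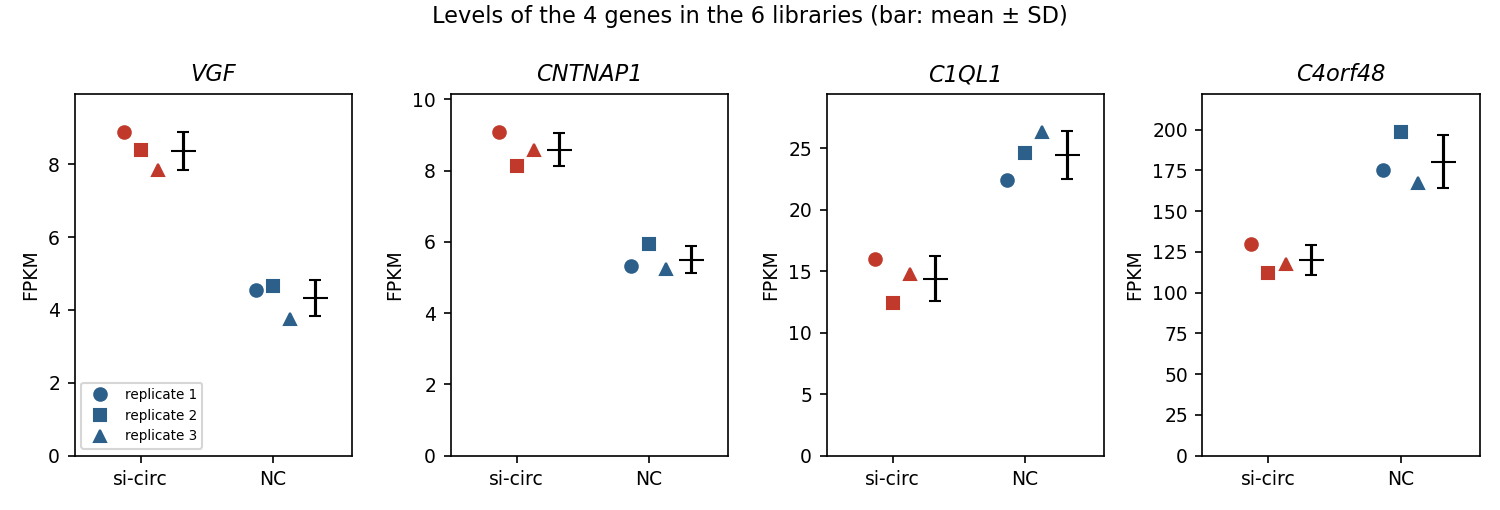
Level in FPKM (vertical axes, from 0) of VGF, CNTNAP1, C1QL1 and C4orf48 in the 3 si-circ_0000839 libraries (red, left) and the 3 NC libraries (blue, right), with the symbol giving the replicate and the bar the mean ± SD. For VGF and CNTNAP1 the red points lie above the blue ones, and for C1QL1 and C4orf48 below them, with no overlap.

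The values that chose the 4 genes were their adjusted p in this comparison, 0.00305 for VGF, 0.0120 for C1QL1, 0.0140 for CNTNAP1 and 0.0183 for C4orf48 in limma, given as a description. Of the listed related genes that did not pass, the smallest adjusted p was 0.151 in limma, well over the threshold, for L1CAM, an axonal adhesion molecule. With 1 library left out in turn, VGF and C1QL1 stayed under 0.05 in 6 of 6 fits. CNTNAP1 stayed under it in 2 of 6 (0.0167 to 0.0608, over it without si-circ_0000839 replicate 1 or 3 or NC replicate 1 or 3). C4orf48 stayed under it in 3 of 6 (0.0263 to 0.0753, over it without si-circ_0000839 replicate 2 or 3 or NC replicate 1). Each of these fits reuses libraries by which the genes were chosen, so the counts are a description as well and no further support. Groups that do not overlap were common, at 18.1% of all tested genes.

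**Figure D2:**
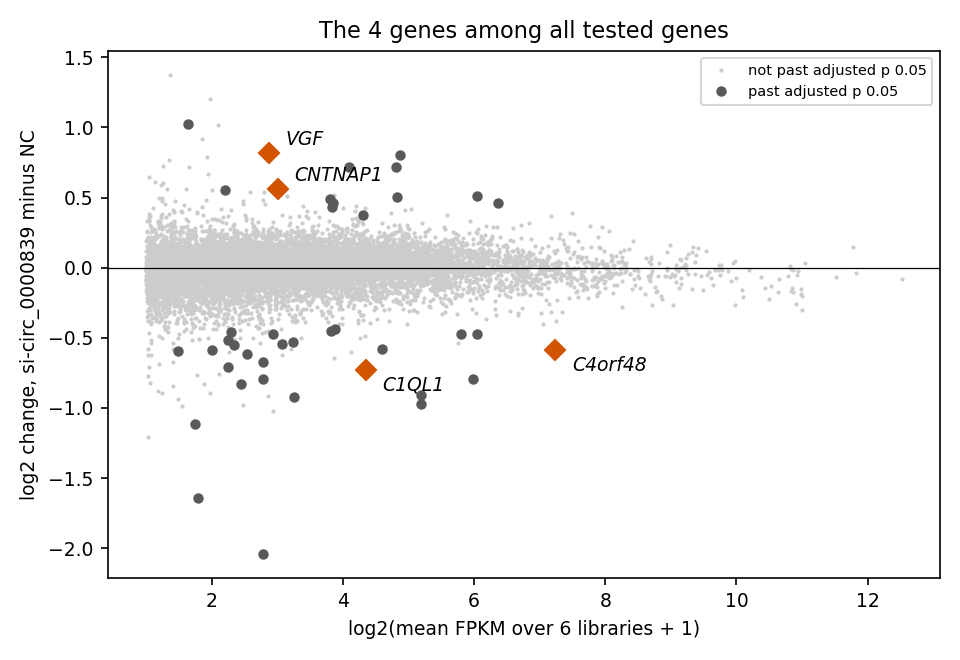
Log2 change (si-circ_0000839 minus NC, vertical axis) against log2 of the mean FPKM over the 6 libraries plus 1 (horizontal axis) for 10674 tested genes, with the 41 genes past an adjusted p of 0.05 in dark grey and the 4 genes as orange diamonds. VGF and CNTNAP1 are near the median level of the tested genes, above 49.5% and 52.3% of them, and C4orf48 is near the upper end.

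Of the 4 genes 3 are very rich in GC. The longest transcript of C4orf48 is 73.2% G or C, that of VGF 70.6% and that of C1QL1 69.3%, and more than 99% of tested genes lie below each of them (99.9%, 99.7% and 99.5%). CNTNAP1, at 57.3%, stands above 76.3% of tested genes, whose median is 49.3%. The libraries differed along this axis. In the top GC quintile of tested genes, values averaged 0.11 above the 6-library mean of each gene in si-circ_0000839 replicate 1 and 0.08 above it in NC replicate 2 (log2 scale). In the other 4 libraries the same average was -0.07 to -0.0095. VGF, CNTNAP1 and C4orf48 each had their highest value of a group in this pair of libraries, and C1QL1 did so in si-circ_0000839 replicate 1 only. Without both libraries the log2 changes were 0.83 for VGF, 0.57 for CNTNAP1, -0.80 for C1QL1 and -0.57 for C4orf48, and C1QL1 had an adjusted p of 0.0517 in limma. After removal of a trend on GC content and length from each library they were 0.89, 0.51, -0.64 and -0.42 in the same order, where C4orf48 kept its sign with a smaller value. The part of the GC trend in the values of the 4 genes was not tested beyond this.

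The chromosomal surroundings were not used to choose the genes, and the nearest tested genes on either side were compared in the same fit. AP1S1, a clathrin adaptor subunit that ends 913 bp from the 3′ end of VGF, was at 112.6 ± 4.72 FPKM after si-circ_0000839 and 112.1 ± 15.8 FPKM in NC (SD, n = 3 each), with a log2 change of 0.01 (SE 0.10, adjusted p = 0.965 in limma). On the other side of VGF the nearest tested gene was PLOD3, a collagen lysyl hydroxylase 40.4 kb away, with a log2 change of 0.17 (SE 0.09, adjusted p = 0.452 in limma).

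C4orf48 starts 90 bp from NELFA, a subunit of the negative elongation factor, which is read in the other direction. NELFA was at 8.60, 7.15 and 7.599 FPKM in si-circ_0000839 replicates 1, 2 and 3, against 6.57, 6.27 and 6.58 FPKM in the 3 NC replicates. Its libraries did not overlap between groups, but the log2 change of 0.23 (SE 0.08) did not pass in limma (adjusted p = 0.278), and its sign was opposite to that of C4orf48. NAT8L, 15.5 kb beyond C4orf48, makes N-acetylaspartate in neurons, and its log2 change was -0.10 (SE 0.08, adjusted p = 0.659 in limma).

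CNTNAP1 ends 461 bp from the end of EZH1, a histone methyltransferase read in the other direction, whose log2 change was 0.01 (SE 0.10, adjusted p = 0.977 in limma). On its 5′ side the log2 change of PLEKHH3 was 0.11 (SE 0.09, adjusted p = 0.679 in limma). CNTNAP1 was the 1 gene of the 4 that overlapped others on the opposite strand, the chemokine receptor gene CCR10 and the antisense gene AC100793.3. CCR10 held 9 to 16 reads per library after si-circ_0000839 and 12 to 24 in NC, and AC100793.3 held 1 to 2 and 0 to 2, against 604 to 1006 for CNTNAP1. The strand setting is not given in the sources used here, so reads in the overlaps cannot be assigned. C1QL1, on the same chromosome 17, had the mitotic kinesin gene KIF18B as its nearest tested neighbour, at a log2 change of 0.04 (SE 0.08, adjusted p = 0.858 in limma), and DCAKD on the other side, at 0.01 (SE 0.09, adjusted p = 0.965 in limma).

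Related genes were taken from 9 lists written with earlier results of these data known. They hold 149 genes, of which 43 had no read in any library and 45 could be tested. Of the 45, 1 was called higher and 0 lower in limma (2.22%, against 0.384% of all tested genes), 6 had an unadjusted p under 0.05, beside 12.6% of all tested genes, and voom called 1. Their median log2 change was 0.04, beside 0.0057 for all tested genes, and 31 lay above 0 and 14 below, where 51.8% of all tested genes lay above 0.

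The called gene was GFRA1, the co-receptor through which GDNF reaches the receptor tyrosine kinase RET. GFRA1 was at 21.0, 22.2 and 20.7 FPKM in si-circ_0000839 replicates 1, 2 and 3, against 16.1, 15.9 and 16.4 FPKM in the 3 NC replicates. The groups did not overlap, and the log2 change was 0.38 (SE 0.07, adjusted p = 0.0426 in limma). That call was narrow: with any 1 of the 6 libraries left out its adjusted p was 0.0704 to 0.141 in limma, and with the replicate number as a block 0.137. RET itself was at 5.33 ± 0.349 FPKM after si-circ_0000839 and 5.23 ± 0.339 FPKM in NC (SD, n = 3 each). GDNF was below 1 FPKM in both groups, at 0.137 and 0.181 FPKM.

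The same list holds the factors known to act upstream of VGF, and apart from GFRA1 its 8 other tested genes did not pass. BDNF, an inducer of VGF in neurons, was at 0.792 FPKM after si-circ_0000839 and 0.857 FPKM in NC, under the minimum for testing. CREB1, which binds the CRE, was at 2.29 ± 0.232 FPKM after si-circ_0000839 and 2.28 ± 0.428 FPKM in NC (SD, n = 3 each). Its coactivator gene CRTC2, the second most abundant of the list, was at 14.1 ± 1.44 and 14.2 ± 0.517 FPKM in the same order.

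Genes of the granule in which VGF travels did not pass either (8 of 19 tested, 0 called, 1 with an unadjusted p under 0.05, voom 0, median log2 change 0.02). The granin relatives CHGA, CHGB, SCG2 and SCG3 were not tested, and CHGB was at 0.183 FPKM after si-circ_0000839 and 0.105 FPKM in NC. The most abundant members were SCG5, a chaperone of prohormone convertase 2, at 12.1 ± 0.710 FPKM after si-circ_0000839 and 12.99 ± 2.35 FPKM in NC, and PAM, which amidates peptides, at 10.7 ± 0.0936 and 9.76 ± 0.361 FPKM in the same order (SD, n = 3 each). PTPRN2, a granule membrane protein, had the smallest p of the list, at 5.75 ± 0.0678 FPKM after si-circ_0000839 and 4.92 ± 0.411 FPKM in NC (adjusted p = 0.343 in limma). Of the 21 other neuropeptide and peptide hormone genes, 5 were tested and 0 called in limma (1 with an unadjusted p under 0.05, voom 0). ADM and UCN2 were the most abundant, at 24.4 and 8.40 FPKM after si-circ_0000839 and 25.9 and 8.56 FPKM in NC, and NMU had the smallest p, at 1.97 ± 0.402 FPKM after si-circ_0000839 and 2.54 ± 0.281 FPKM in NC (SD, n = 3 each, adjusted p = 0.366 in limma). Of the proteins reported to bind VGF peptides, C1QBP was at 94.8 ± 3.36 and 99.97 ± 7.39 FPKM in the same order (adjusted p = 0.735 in limma), and C3AR1 was at 0.409 and 0.214 FPKM.

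The partners of CNTNAP1 at the paranode were sparse. CNTN1, its binding partner, was at 0.245 FPKM after si-circ_0000839 and 0.165 FPKM in NC, and of 23 listed contactins, contactin-associated proteins and axoglial genes 4 were tested. In limma 0 of them were called, 1 had an unadjusted p under 0.05, voom called 0, and the median log2 change was 0.12. L1CAM was at 6.32, 4.66 and 5.40 FPKM in si-circ_0000839 replicates 1, 2 and 3, against 4.18, 3.87 and 3.80 FPKM in the 3 NC replicates (log2 change 0.38, SE 0.10). The spectrin genes SPTBN1 and SPTAN1, which tie such junctions to the cytoskeleton, were at 22.7 ± 0.595 and 20.3 ± 1.48 FPKM after si-circ_0000839 and at 20.5 ± 1.43 and 19.0 ± 0.655 FPKM in NC (SD, n = 3 each).

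Paralogs of C1QL1 were nearly silent. C1QL3 was at 0.0504 FPKM after si-circ_0000839 and 0.0707 FPKM in NC, and C1QL4 at 0.164 and 0.241 FPKM. The receptor gene ADGRB3 was at 0.209 and 0.184 FPKM in the same order. Of 30 listed genes of the C1q family and its receptors 4 were tested and 0 called in limma (1 with an unadjusted p under 0.05, voom 0, median log2 change 0.07). C1QTNF6 had the smallest p, at 4.30 ± 0.439 FPKM after si-circ_0000839 and 3.37 ± 0.410 FPKM in NC (SD, n = 3 each, adjusted p = 0.272 in limma), and the secreted C1QTNF1 was the most abundant, at 58.7 and 53.6 FPKM, ahead of EMILIN2 at 4.29 and 4.79 FPKM. The mouse partners of the C4orf48 product were not expressed at a testable level: NELL2 was at 0.107 FPKM after si-circ_0000839 and 0.109 FPKM in NC, and NELL1 and ROS1 had no read in any library.

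REST, the repressor of neuronal genes in other tissues, was at 2.07 ± 0.300 FPKM after si-circ_0000839 and 2.38 ± 0.259 FPKM in NC (SD, n = 3 each, adjusted p = 0.612 in limma). Of REST and its corepressors 10 of 11 were tested and 0 called in limma, with 0 at an unadjusted p under 0.05 and 0 called by voom, and SIN3B had the smallest p, at 13.8 and 12.2 FPKM (adjusted p = 0.451 in limma). HDAC1 and CTDSP1 were the most abundant, at 65.5 and 34.6 FPKM after si-circ_0000839 and 64.6 and 34.7 FPKM in NC. Of 22 neuronal and neuroendocrine identity genes 4 were tested and 0 called in limma (1 with an unadjusted p under 0.05, voom 0). UCHL1, a deubiquitinase abundant in neurons, was at 127.6 ± 8.50 FPKM after si-circ_0000839 and 153.3 ± 19.6 FPKM in NC (SD, n = 3 each, adjusted p = 0.310 in limma), and ENO2 was at 18.0 and 16.4 FPKM. The neuroendocrine factors INSM1 and NEUROD1 had no read in any library.

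**Figure D3:**
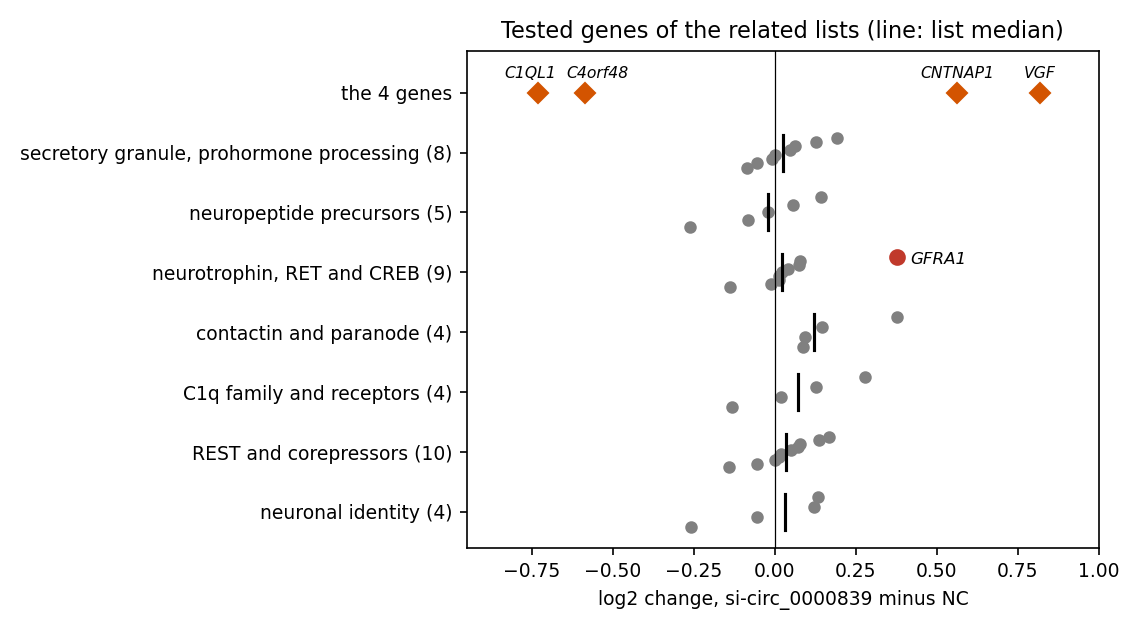
Log2 change (si-circ_0000839 minus NC, horizontal axis) of the tested genes of the 7 lists with at least 4 of them, with the list median as a line and the number of genes in parentheses. GFRA1 in red is the 1 called gene of the lists. The 4 genes at the top (orange), which were chosen by their adjusted p in this comparison, lie outside the range of the lists.

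The labelled cell type was checked against its markers. PAX8 and FOXE1 of the thyroid lineage were at 96.3 and 11.6 FPKM after si-circ_0000839 and 95.8 and 10.9 FPKM in NC, and 4 of the 7 thyroid genes had no read in any library. Of the 6 epithelial markers KRT7, KRT8 and KRT18 were between 95.1 and 207.8 FPKM in group means. The other epithelial markers averaged below 1 FPKM: EPCAM was at 0.815 FPKM after si-circ_0000839 and 0.861 FPKM in NC, KRT19 was at 0.0523 and 0.0378 FPKM in the same order, and CDH1 had no read in any library. Markers of thyroid C cells and Schwann cells were low, while the neuronal list as a whole was not. Its 22 genes summed to 140.6 to 159.0 FPKM per library after si-circ_0000839 and 155.7 to 197.2 FPKM in NC. Most of that was UCHL1, and 7 of the 22 were at 0 in all libraries. The 5 markers of thyroid C cells summed to 0.0909 to 0.342 FPKM per library after si-circ_0000839 and 0.112 to 0.282 FPKM in NC, with 2 of 5 at 0 in all libraries. The 5 Schwann cell markers summed to 2.28 to 2.37 and 2.24 to 2.52 FPKM in the same order, nearly all of it MBP. Leukocyte markers summed to at most 0.4999 FPKM and endothelial markers to at most 0.153 FPKM in any library. The 5 fibroblast markers summed to 14.5 to 19.1 FPKM after si-circ_0000839 and 20.1 to 25.2 FPKM in NC. Most of that was LUM, a matrix proteoglycan, at 15.8 ± 2.40 and 22.5 ± 2.53 FPKM in the same order (SD, n = 3 each, adjusted p = 0.108 in limma), while COL1A1 was at 0.565 and 0.370 FPKM. This sum, mostly LUM, moved in the direction of C1QL1 and C4orf48, and its part in their values was not tested. COL1A1 and PDGFRB, the latter at 0.197 FPKM after si-circ_0000839 and 0.136 FPKM in NC, lay the other way. DCN was at 0.00282 and 0.00279 FPKM and COL1A2 at 0 and 0.00154 FPKM in the same order.

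Tested protein-coding genes other than the 4 were ranked by Pearson correlation of log2(FPKM + 1) with each of the 4 over the 6 libraries. The top 3 are given as a description over 6 points that share the step between groups and the GC trend of the libraries. With so many genes ranked over 6 points, values of r close to 1 at the top are no sign of a link. For VGF they were WARS, a tRNA synthetase (r = 0.996), WDR82 (0.995) and RNF114 (0.994), whose log2 changes were between 0.11 and 0.14. They did not pass in limma (adjusted p = 0.487, 0.518 and 0.380). For CNTNAP1 they were GDPD5 (r = 0.999), EXOSC10 (0.999) and ADAM19, a metalloprotease (0.997). GDPD5 and EXOSC10 did not pass in limma (adjusted p = 0.0979 and 0.629). ADAM19 was at 20.1 FPKM after si-circ_0000839 and 11.8 FPKM in NC. For C1QL1 they were TFPI2, a protease inhibitor (r = 0.993), SLC25A43 (0.984) and C4orf3 (0.980). TFPI2 was at 62.3 FPKM after si-circ_0000839 and 80.6 FPKM in NC (adjusted p = 0.0526 in limma). SLC25A43 and C4orf3 did not pass either (adjusted p = 0.0653 and 0.183 in limma). For C4orf48 they were TAF10, a subunit of TFIID and SAGA (r = 0.992), RAB32 (0.990) and TP53I11 (0.989). TAF10 was at 3.10 FPKM after si-circ_0000839 and 4.997 FPKM in NC (log2 change -0.55, adjusted p = 0.0244 in limma). RAB32 and TP53I11 did not pass (adjusted p = 0.116 and 0.106 in limma).

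**Figure D4:**
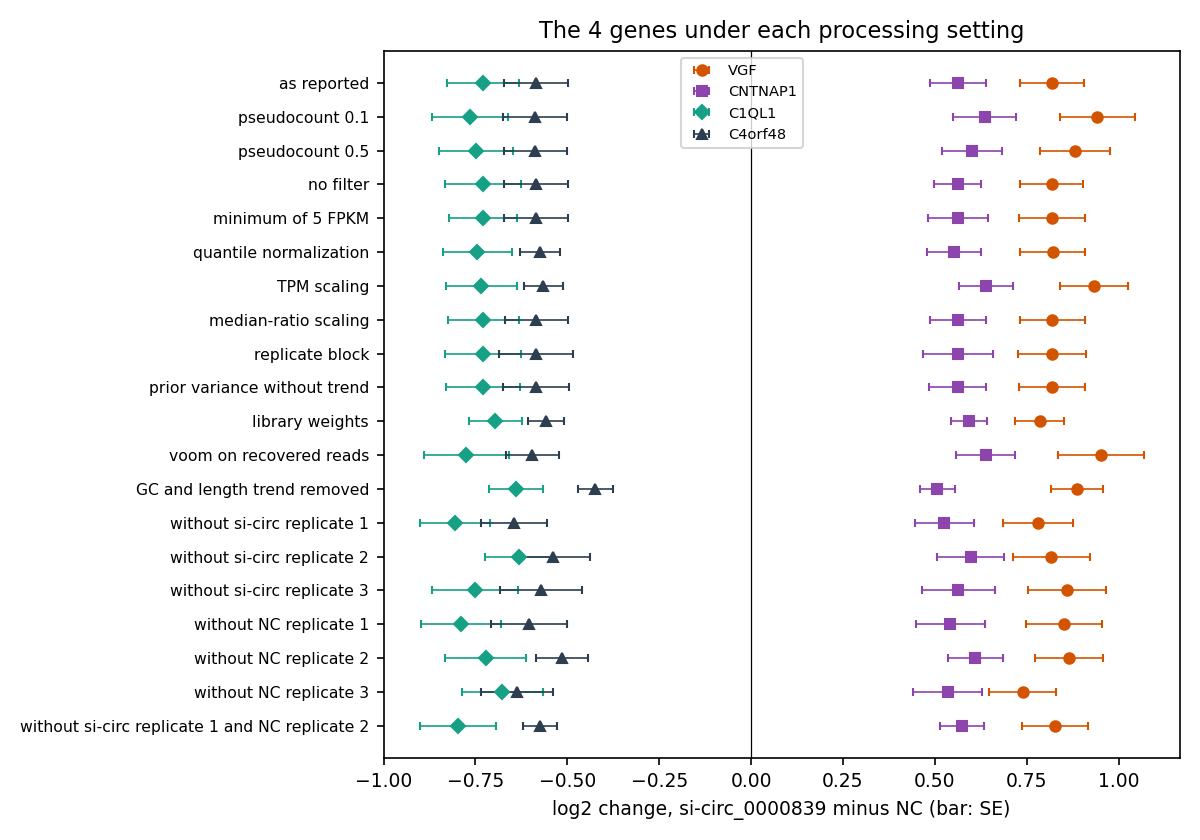
Log2 change (si-circ_0000839 minus NC, horizontal axis, bars SE) of VGF, CNTNAP1, C1QL1 and C4orf48 as reported and under 19 other settings (rows). VGF and CNTNAP1 stay to the right of 0 and C1QL1 and C4orf48 to the left in each. C4orf48 comes nearest to 0 when the GC and length trend is removed, at -0.42. The settings reuse libraries by which the genes were chosen, so the kept signs are a description only.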

How the data were processed

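Per the labels, TPC1 cells received si-circ_0000839 or NC siRNA for 60 h, with 3 samples each. Groups and replicate numbers came from the titles. The submitters' processing notes list the aligner HISAT2 2.0.5 and the counter featureCounts 1.5.0-p3; the sources used here do not give build, strand setting or scaling. The authors deposited FPKM for 58735 genes with gene lengths, per the file headers. Each of the 58735 gene IDs lies where GENCODE release 29 (GRCh38) places it. FPKM times length was a whole multiple of one step per library for 100% of values above 0 (tolerance 0.01), which gave the reads.

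Genes averaging 1 FPKM or more were tested with limma 3.58.1 (R 4.3.3, trended prior variance, two-sided) on log2(FPKM + 1), with group as the only term and Benjamini-Hochberg adjustment over all 10674 genes. Since separate cultures are not stated, p-values reflect the spread among these samples alone, which may be technical. The 4 genes, the lists and the settings were chosen with earlier results of these data known. Besides the 4 genes the text names the nearest tested neighbours within 100 kb, overlapping genes, listed paralogs, and markers. Of a list it names the called gene or else the gene with the smallest p, and the 2 most abundant tested genes. It also names the 3 tested protein-coding genes, other than the 4, most correlated with each of the 4. Other genes named with their levels (partners, receptors and upstream factors of the 4 genes, such as RET, CREB1 and CNTN1) were added after their values were seen. Some genes, and the count of called neighbours, are not reported here, so the nearest neighbours named do not stand for all genes nearby.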

Additional observations from a re-analysis of the deposited data

How the results depend on the processing

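Across 19 other settings the 4 genes kept their direction. Each setting reuses libraries by which the genes were chosen, so this is a description and no further support. VGF ranged from 0.74 to 0.95, CNTNAP1 from 0.51 to 0.64, C1QL1 from -0.81 to -0.63 and C4orf48 from -0.64 to -0.42 in log2 change. The moves beyond the spread between replicates were those of VGF (0.94 at a pseudocount of 0.1, 0.93 after TPM scaling and 0.95 with voom on recovered reads), of CNTNAP1 (0.64 after TPM scaling) and of C4orf48 (-0.42 without the GC and length trend), and the cause was not tested. With 1 library left out they spanned 0.74 to 0.87, 0.53 to 0.61, -0.81 to -0.63 and -0.64 to -0.52 in the order VGF, CNTNAP1, C1QL1 and C4orf48.

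The number of called genes, 41 as reported, was 4 with no filter (26557 genes tested), 68 at a minimum of 5 FPKM, 63 after quantile normalization, 85 with voom, 220 without the GC and length trend, 1623 with library weights, 26 without si-circ_0000839 replicate 1 and NC replicate 2, and 20 to 38 with 1 library left out. With no filter the adjusted p of the 4 genes was 0.135 to 0.259 in limma. Of the related lists 1 gene was called as reported, 6 with library weights, and 0 with no filter, after TPM scaling, with the replicate block, with an untrended prior, without both libraries named above and with any 1 library left out.

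With the replicate number as a block 35 genes were called, 25 of them among the 41. Same-numbered libraries had correlations of -0.15, -0.29 and 0.15 in their deviations from the group means. Only si-circ_0000839 replicate 3 correlated best with its own number, so the numbers are not taken as pairs. edgeR on the recovered reads was planned and not run, and voom was run on the same reads. Many partners of the 4 genes averaged below 1 FPKM and were not tested.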
